A study of Mus musculus with 32 samples.

Results

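The RNAs described here had the most lines in a list of m6A sites of mouse hippocampal neurons: those whose gene symbol stood on 12 or more lines of the DART-seq site list. There were 100 such RNAs among the 5643 with any listed site (1.77%), and they held 1524 of the 18231 lines (8.36%). Since some lines repeat a position, the 1524 lines stood for 1478 distinct positions, and these are called sites below. The RNAs were thus chosen by a DART-seq readout, the number of their lines, and the count, spacing and editing of their sites are given only as a description with no test. At the threshold, 34 RNAs had exactly 12 lines and a median DART-seq score of 0.440 in WT neurons, and 43 RNAs had exactly 11 lines and a median of 0.387. RNA-seq counts of the same kind of neurons took no part in the choice, and only these were tested.

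N6-methyladenosine is a methyl mark that the METTL3 methyltransferase places on adenosines of mRNA, in the sequence RAC (R is G or A) and most often in DRACH (D is not C, H is not G). YTH-domain proteins bind the mark and affect the stability, translation and transport of the RNA. In neurons, RNAs that are carried into axons and dendrites can be translated far from the cell body, and m6A is 1 of the features studied for a part in that transport. In DART-seq, the cytidine deaminase APOBEC1 fused to a YTH domain is added to purified RNA, and the C next to a methylated A is read as U in some of the reads. The C2U fraction is the share of reads with that change, and the DART-seq score of an RNA is the sum of the C2U fractions of its called sites.

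Hippocampal neurons of newborn pups were grown to DIV 15 on porous membrane inserts, through which neurites reach the underside while cell bodies stay on top. WT cultures came from the strain labelled C57BL/6 and Mettl3-/- cultures (KO) from the strain labelled Mettl3Flox/Flox, and both received AAV hSyn-Cre-P2A-dTomato at DIV 7, so WT neurons carried Cre as well. The hSyn promoter drives Cre in neurons, which leaves Mettl3 intact in other cells of the culture. Every culture had its activity blocked with TTX (1 µM) plus D-AP5 (50 µM) over 16 h, and the Ctrl inserts got nothing more while the KCl inserts got 55 mM KCl for 2 h. Each of the 8 RNA-seq groups (soma or neurites, WT or KO, Ctrl or KCl) held 2 libraries from distinct litters, with the pups of a litter pooled, with Ctrl and KCl neurons from the same litter, and with soma and neurites taken from the same insert. Neurites that stayed on the upper side were collected with the soma. The DART-seq values are the authors' averages over 8 WT or 8 KO libraries, or over the 4 WT libraries of a compartment with both treatments together, so they have no replicates here and the read depth at a site is unknown.

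The 16 RNA-seq libraries held 33789183 to 71394235 counts. Replicates differed less in WT, with an SD of the log2 ratio of 0.17 to 0.36 over 15170 genes, than in KO, with 0.50 to 1.33. Mettl3, the targeted gene, stood at 8.90 to 17.3 CPM (counts scaled to a common library total) in WT and at 3.88 to 11.6 CPM in KO libraries, and within each compartment and treatment both KO libraries were below both WT libraries. Summed over 10 neuronal marker genes, KO neurites held 7335 and 8831 CPM in Ctrl against 11535 and 13385 in WT. The 2 libraries of KCl-treated KO insert 1 stood apart from the rest: the neuronal sum was 2215 CPM in neurites and 2524 in soma, against 9753 and 6490 in insert 2. In the same insert, the sum over 11 astrocyte markers was 19388 CPM in neurites, against 2969 in insert 2, and the sum over 7 genes of the oligodendrocyte lineage was 6963, against 93.3. The counts of calls for the KO change in enrichment are given with and without this insert. Most other values that use it are given only with it. In bulk libraries, fewer cells of a type and less RNA per cell cannot be told apart.

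Some of the sites that carried the highest C2U fractions and the tightest groups of sites are shown first, because the results turn on editing level and spacing. Sequences are read 5′ to 3′ on the RNA strand from GRCm38.p6 (RefSeq), and capitals mark the RAC of a listed site. The sites of Rgs5, a regulator of G-protein signalling best known from pericytes, and of Jak1, a kinase of cytokine receptors, were among the most edited, and both lay in 3′UTRs.
Rgs5: cataacttGACtgatgcttcc
Jak1: agttcctcAACaaatactcga
The Rgs5 window (chr1:169694302-169694322, plus strand) lay 1972 bases past the stop codon in exon 5 and had a C2U of 31.3%. The Jak1 window (chr4:101153376-101153396, minus strand) lay 109 bases past the stop codon in exon 25, with 29.0%.

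Among the tight groups, Acp1, a low-molecular-weight protein tyrosine phosphatase, had 4 sites within 18 bases of its 3′UTR, in a run of AAC and A. Ppp1r37, a regulatory subunit of protein phosphatase 1, had 3 sites within 18 bases of a GAC repeat in its 5′UTR. Fgfr1, a receptor for fibroblast growth factors, had 3 sites within 19 bases of coding sequence. Reln, the secreted glycoprotein reelin, had 2 coding sites 8 bases apart, and Mcf2l, a guanine nucleotide exchange factor for small GTPases, had 2 that were 4 bases apart. The Map2 pair, 22 bases apart, is shown because this RNA recurs in the comparison of WT and KO.
Acp1: aAACaaaAACaaaAACaaaAACcca
Ppp1r37: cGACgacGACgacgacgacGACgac
Fgfr1: aGACggacaacaccaAACcaAACcgt
Reln: tAACatggaAACtcc
Mcf2l: aGACgGACccg
Map2: aGACtccttccctataagtctggAACaag
The C2U of these sites ran from 1.58% to 6.54% in the Acp1 window (chr12:30895581-30895605, minus strand) and from 3.38% to 5.47% in the Ppp1r37 window (chr7:19562166-19562190, minus strand), where GAC copies between the listed ones are not on the list. It ran from 1.32% to 9.11% in the Fgfr1 window (chr8:25557791-25557816, plus strand), and was 5.82% and 16.3% in the Reln window (chr5:22039548-22039562, minus strand). In the Mcf2l window (chr8:13013582-13013592, plus strand) it was 1.75% and 4.32%, and in the Map2 window (chr1:66413434-66413462, plus strand) 5.51% and 8.92%. Neighbours a few bases apart could therefore differ several-fold in C2U.

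Reln stood far above the other RNAs with 54 sites, all in coding sequence and spread over 39 of its 65 exons. Other RNAs with many sites were Dync1h1 (23), the heavy chain of cytoplasmic dynein, Map1a (23), a microtubule-associated protein, and Lrp1 (21), an endocytic receptor of the LDL receptor family. Mcf2l also had 21, and Fgfr1 and Meg3, an imprinted long noncoding RNA, had 20 each. The gene Reln spans 21884454 to 22344702 on chromosome 5, and 15.7% of the 343 RAC on its transcript were listed. Its WT score of 2.96 was the highest of all 100. Jak1 had a score of 1.27, and the median of the 100 was 0.525.

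Several members belong to groups of proteins that shape or use the cytoskeleton of neurites. Of 22 genes for cytoskeletal linkers and microtubule-associated proteins, 6 were members, among them Sptbn1, Map1a, Map1b, Map2 and Map4, and of 14 motor protein genes, 6 were members (Dync1h1, Kif1a, Kif1b, Kif3a, Kif5b and Myh10). Postsynaptic scaffolds gave 3 of 20 (Shank3, Dlg3 and Dlgap4), RNA-binding and RNA decay proteins 2 of 26 (Prrc2b and Srrm2), guidance and adhesion receptors 2 of 31 (Lrp1 and Adgrl1), and chromatin and transcription regulators 1 of 48 (Chd4). The lists used here held no member among 13 genes of the presynaptic active zone, 17 ubiquitin ligases, 16 genes of the m6A machinery, 21 ion channels and 16 genes of growth signalling, although members outside these lists, such as the F-box gene Fbxo31, have related roles. Only genes with a listed site could be members. These were 21 of the cytoskeletal, 13 motor, 17 scaffold, 17 RNA-binding, 16 guidance and 21 chromatin genes. In the lists without members they were 8 presynaptic, 12 ubiquitin ligase, 11 m6A, 8 channel and 8 growth genes. Of all RNAs with a site, 1.77% were members. The part of RNA length and level in these counts was not tested.

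The RNAs were long and well expressed, and their sites were also dense per length. The median exon length was 7992 bases, against 4488 for all RNAs with sites, and the median level in WT was 28.1 RPKM (CPM per kilobase of exon) against 12.9. There were 1.85 sites per kilobase of exon at the median, against 1.41 in RNAs with 8 to 11 lines and 0.573 in all RNAs with sites. Over the 100 RNAs, the number of sites followed exon length only loosely (Spearman correlation of 0.25, n = 100 RNAs that share libraries and depth). Among the densest were Ppp1r37 with 4.38 sites per kilobase and Atcay, the brain protein caytaxin, with 4.004. Among the RNAs with most sites, by contrast, Lrp1 had 1.19 sites per kilobase and Meg3 1.11.

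**Figure D1:**
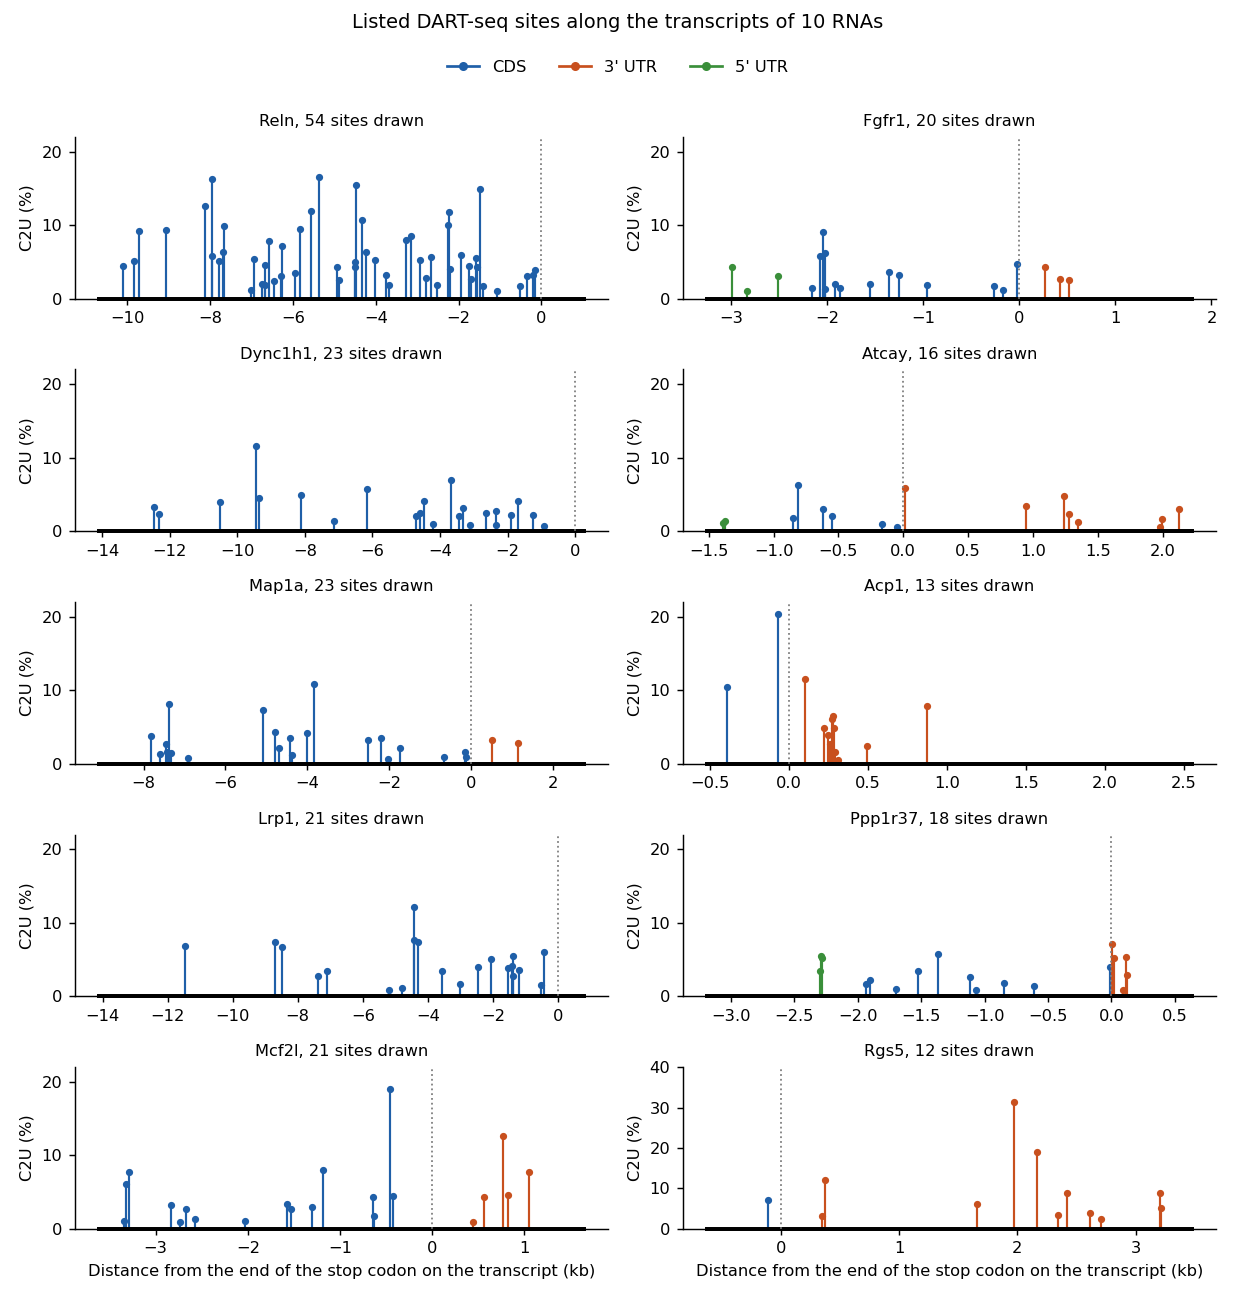
Listed sites of 10 RNAs along the transcript that holds most of them. The x axis is the distance from the end of the stop codon in kb (dotted line at 0), the y axis the C2U in percent (up to 40% for Rgs5 and to 22% for the others), and the black bar the transcript. The 54 sites of Reln spread over its coding sequence, while 11 of the 13 sites of Acp1 lie in its 3′UTR.

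Neighbouring sites lay close together. Measured along the joined exons, the median gap between neighbours was 219 bases over 1353 gaps, and 46 gaps were of 10 bases or less, down to 3. Of the sites, 45.4% had their nearest neighbour within 100 bases, against 39.9% in RNAs with 8 to 11 lines and 29.98% in those with 2 to 7. A gap of at most 100 bases occurred in 99 of the 100 RNAs, and the exception was Agtpbp1, a tubulin deglutamylase whose 12 lines are 6 positions. More sites on an RNA bring neighbours closer by themselves, and that part was not taken out of these shares. At the other extreme, 114 gaps were over 1000 bases.

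The share of close neighbours differed widely between RNAs. In Atcay 81.3% of sites had a neighbour within 100 bases, in Chd4, the helicase of the NuRD complex, 78.9% had one, and in Reln 57.4% with a median gap of 135 bases. Acp1 had 8 sites within 89 bases and a median gap of 22.5 bases, the shortest of the 100. By contrast, the share was 11.8% in Kif1b, a kinesin, 16.7% in Fasn, the fatty acid synthase, and 17.4% in Dync1h1, where the median gap was 299 bases.

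**Figure D2:**
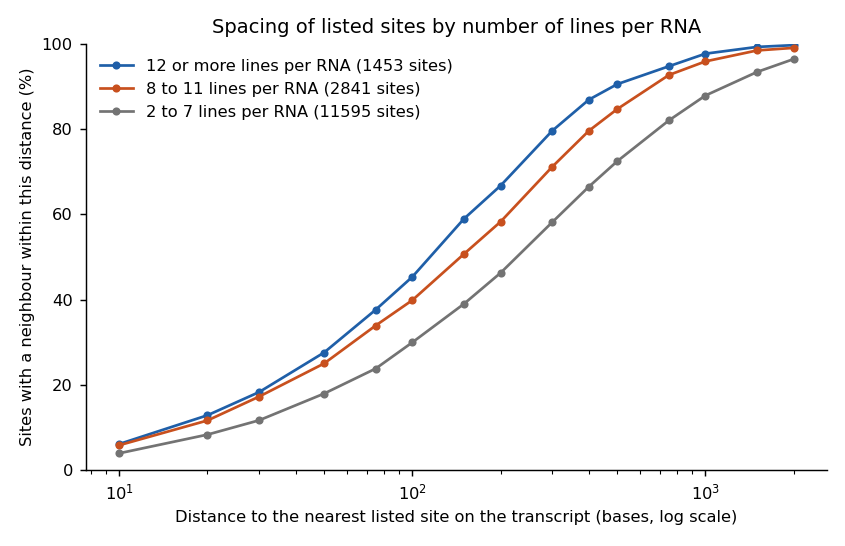
Share of sites, in percent, whose nearest listed site on the transcript lies within the distance on the x axis (bases, log scale), for RNAs with 12 or more, 8 to 11 and 2 to 7 lines. At 100 bases the curves pass 45.4%, 39.9% and 29.98%.

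By annotation, 63.1% of the 1478 sites lay in coding sequence (95% Wilson interval 60.6 to 65.5%, counting error only), 30.9% in the 3′UTR and 2.30% in the 5′UTR. The same shares were 59.5%, 32.0% and 3.90% over all listed sites. Most sites were coding in 67 of the 100 RNAs, and in 23 most lay in the 3′UTR or past its annotated end, such as Rab6b, a small GTPase of vesicle traffic (12 of 13 sites in the 3′UTR), Rgs5 (11 of 12) and Nav1, a microtubule-binding neuron navigator (15 of 18). Within 400 bases of the end of the stop codon lay 16.3% of sites. The last exon held 35.7% of sites, internal exons of under 400 bases 48.8%, and internal exons of at least 400 bases 8.59%. The shares of all bases in these stretches were not computed, so none of these values can be called high or low.

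In motif, listed sites were close to all RAC of the same transcripts, listed ones included, and they differed more in the next base. The transcripts held 17719 RAC, of which 1437 (8.11%) were listed. DRACH made up 71.6% of all RAC and 70.4% of the listed ones, GGACT 3.96% and 3.48%, and GAC (rather than AAC) 55.8% and 54.8%. The base after the C was C in 29.8% of all RAC and 33.0% of the listed ones, and T in 24.9% and 21.6%. Coding sequence held 61.8% of all RAC and 64.9% of the listed ones. In the 98 transcripts with a complete reading frame, the edited C was the third base of its codon in 58.2% of all coding RAC and in 54.3% of the listed ones. It was the second base in 23.9% and 27.2%. The listed share per RNA had a median of 8.64% and was 2.69% in Agtpbp1, the lowest, and 22.2% in 1500011B03Rik.

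Editing at the sites was low on the whole and uneven. The median C2U was 3.11% (quartiles 1.84% and 5.33%), against 3.54% over all listed sites and 4.27% in RNAs with a single line. A C2U of at least 10% was found at 91 of the 1478 sites (6.16%), against 9.37% over all listed sites. The median differed with the base that follows the edited C: it was 4.17% before T, 3.802% before A, 3.21% before G and 2.21% before C. Sites with a neighbour within 100 bases had a median of 3.11% and the others 3.07%, and sites in coding sequence and 3′UTR had 3.04% and 3.19%.

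Within an RNA, the site with the highest C2U gave a median of 18.8% of the sum over sites. It reached 10% or more in 49 of the 100 RNAs. Beside Rgs5 and Jak1, high single sites were those of Ntrk2, the BDNF receptor TrkB (27.9%), Rybp, a Polycomb-associated protein (25%), Purb, a nucleic acid-binding protein (23.7%), and Acp1 (20.3%). In Reln, by contrast, no site exceeded 16.6%, and the highest gave 5.02% of the sum over its sites, which had a median of 5.09%. In Kif1a, a kinesin of synaptic vesicle precursors, the median over 19 sites was 1.41%.

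For 6 of the 100 RNAs, 12 lines were reached only because every position stood on 2 lines: 1500011B03Rik and Rapgef1 (20 lines, 10 positions), Rybp (16 lines, 8 positions), and Agtpbp1, Mical2 and Rrp7a (12 lines, 6 positions). Such repeats affected 27 RNAs of the whole list, and the authors' number of sites counts the lines. In Rapgef1, a guanine nucleotide exchange factor for Rap1, the C2U fractions of the 10 positions sum to 0.367, whereas the score is 0.633. The number of sites and the score of these 6 RNAs are therefore not comparable with those of the other 94.

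The score was higher in neurites than in soma for 90 of the 100 RNAs, beside 68.5% of all 5594 RNAs with both scores. The share was 86.7% in RNAs with 8 to 11 lines, 72.0% in those with 2 to 7 and 57.4% in those with 1. Scores of RNAs with more lines sum more sites, and the part of this in the shares was not tested. The median ratio of neurite to soma score was 1.48, against 1.38 in RNAs with 8 to 11 lines, 1.31 in those with 2 to 7 and 1.18 in those with 1. The ratio was at least 1.5 in 47 of the 100 RNAs and at least 2 in 10. It was highest in 5031439G07Rik (2.77), in Dlgap4, a scaffold of the postsynaptic density (2.60), and in Agtpbp1 (2.39). It was lowest in Acp1 (0.861), in Mical2, a monooxygenase that acts on actin (0.930), and in Nisch, the integrin-binding protein nischarin (0.946). Each score is 1 average without an error, so no single ratio can be set against replicate spread.

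The ratio varied widely among RNAs with many sites. Reln had a score of 2.83 in soma and 3.03 in neurites, a ratio of 1.07, and Jak1 had 1.16 and 1.42, a ratio of 1.22. Lrp1 had 0.681 and 1.12 (ratio 1.64), and Map1a 0.412 and 0.694 (1.69). Map2, the dendritic microtubule-associated protein, had 0.467 and 0.825 (1.77), and Mcf2l 0.608 and 1.22 (2.01). The score is a sum of editing fractions, and how far it depends on the amount of RNA was not tested. Over the 100 RNAs, the log2 ratio of the scores followed the RNA-seq log2 ratio of neurites to soma only weakly (Spearman correlation of 0.15 in WT Ctrl, n = 100).

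**Figure D3:**
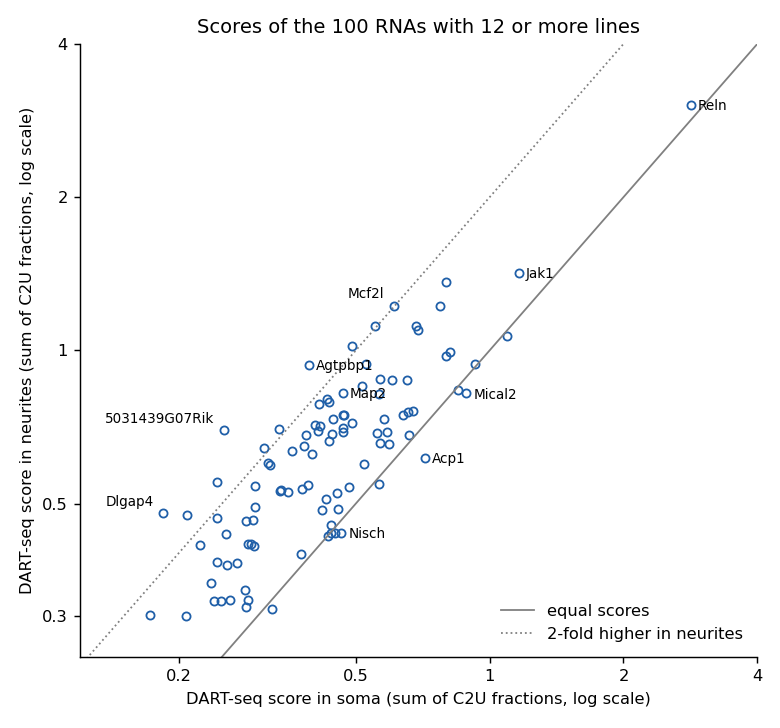
DART-seq score in neurites (y axis) against soma (x axis) for the 100 RNAs, both as sums of C2U fractions on log scales, each point an RNA. Of the points, 90 lie above the line of equal scores and 10 at or above the dotted line of a 2-fold higher score, and Reln lies alone at the upper right.

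In KO neurons the score stood at a median of 36.3% of the WT score. Sites were listed only where the C2U was higher in WT than in KO by a set fold, so the filter itself caps this share, and it is given with no reading. Among the RNAs with a KO score above 0 it ran from 17.3% in Bcr, a GTPase-activating protein, to 67.5% in Acp1, the RNA of the A-rich group of sites printed above. Reln stood at 22.9% and Map2 at 41.9%.

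Acp1, the RNA with the highest KO score as a share of its WT score, was at 76.9 and 85.0 CPM in WT Ctrl soma and at 92.1 and 96.7 CPM in WT Ctrl neurites. In KO it was at 48.1 and 51.3 CPM in soma and at 70.0 and 66.9 CPM in neurites. Its RNA level was thus lower in each untreated KO library than in each untreated WT library of the same compartment.

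In untreated soma, 0 members were called higher in KO than in WT, beside 0.0253% of 23750 genes, and 1 was called lower, beside 0.0884% (edgeR, 1.5-fold, adjusted p of at most 0.05). At an unadjusted p of at most 0.05 there were 14 members, beside 13.7% of all genes. Leaving out KO soma replicate 1 gave 36 members called (8 higher, 28 lower), beside 23% of all genes, leaving out KO soma replicate 2 gave 3, beside 1.13%, and a fit of the 4 soma libraries alone gave 0, with 8 at an unadjusted p of at most 0.05, beside 11.8%. The KO is labelled with a strain of its own, so strain and loss of Mettl3 cannot be told apart in any comparison of the genotypes.

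**Figure D4:**
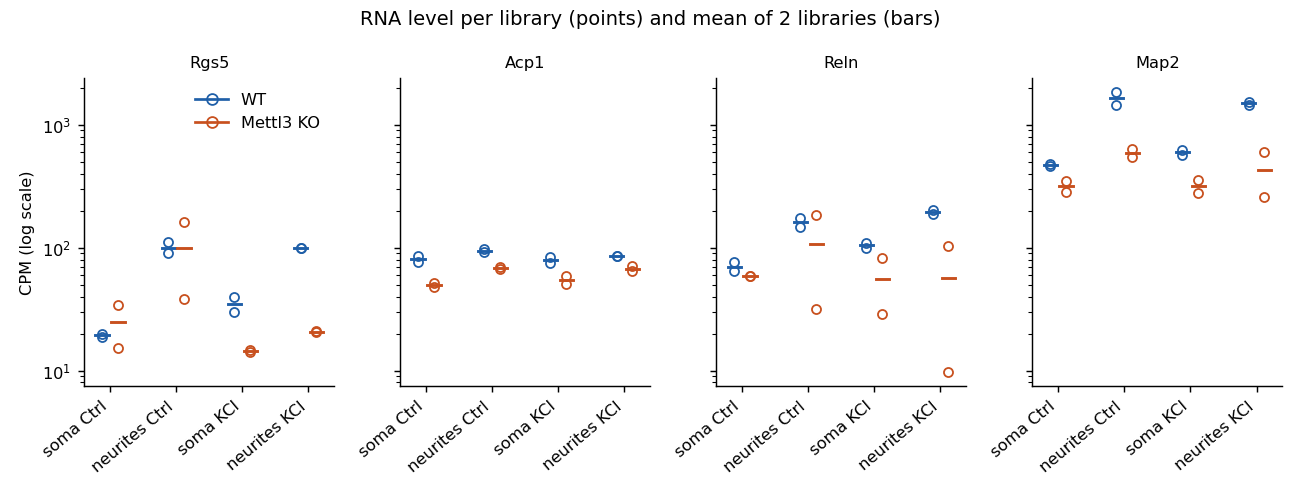
RNA level in CPM (log scale) of Rgs5, Acp1, Reln and Map2 in each of the 16 libraries (open circles, WT blue, Mettl3 KO orange), with bars for the mean of 2 libraries. The Reln values of KO libraries spread from 9.71 to 184 CPM, while those of WT libraries lie between 64.5 and 201 CPM.

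To ask whether the 100 RNAs were enriched in neurites relative to soma, the neurite and soma libraries of WT inserts without KCl were compared. Of the 100 RNAs, all tested, 31 were higher in neurites, beside 9.01% of 23200 genes, and 1 was lower, beside 4.54% (at least 1.5-fold, edgeR adjusted p of at most 0.05). The median log2 change was 0.27, against −0.10 over all genes tested. The share of higher RNAs was 22.6% of the 318 with 8 to 11 lines, 10.5% of the 3315 with 2 to 7 and 7.81% of the 1767 with 1. The level and length of the RNAs also differed between these classes, and their part in the shares was not tested. In an edgeR fit of all 16 libraries, where the spread between KO replicates enters, no gene was called. There, 21 members had an unadjusted p of at most 0.05, beside 7.4% of all genes.

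The largest increase was that of Rgs5, at 19.9 and 18.8 CPM in soma and 110 and 90.1 CPM in neurites. Its log2 change was 2.31 (SE 0.14, edgeR adjusted p = 0.000114), and the groups did not overlap. Its 11 sites in the 3′UTR include the site of 31.3% printed above. Of 11 fibroblast and vascular marker genes tested, 6 were called higher in neurites too, and the sum over the 12 on the list was 57.5 and 112 CPM in neurites and 26.3 and 31.5 CPM in soma. Of 11 astrocyte markers, 6 were called higher, with sums of 2277 and 3595 CPM in neurites and 1317 and 1342 CPM in soma. Their part in the value of Rgs5 was not tested.

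Map2 was at 464 and 478 CPM in soma and at 1436 and 1830 CPM in neurites. The log2 change was 1.73 (SE 0.14, edgeR adjusted p = 0.000117). Kif5b, the heavy chain of kinesin-1, was at 422 and 406 CPM in soma and at 1186 and 1660 CPM in neurites, a log2 change of 1.72 (SE 0.21, edgeR adjusted p = 0.000569). In both RNAs each neurite library was above each soma library.

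Reln was at 75.8 and 64.5 CPM in soma and at 175 and 148 CPM in neurites, a log2 change of 1.13 (SE 0.12, edgeR adjusted p = 0.000346). Among the other RNAs with most sites, Map1a rose by 1.56 and Mcf2l by 0.89 on the log2 scale, whereas Dync1h1 (−0.02), Lrp1 (−0.13) and Fgfr1 (−0.08) did not pass the test. The only member that fell was Meg3, at 2051 and 2000 CPM in soma and at 1036 and 880 CPM in neurites, a log2 change of −1.15 (SE 0.13, edgeR adjusted p = 0.000362).

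By group, 4 of the 6 cytoskeletal members rose, among them Map1a, Map1b and Map2, beside 6 of all 22 genes of that list. Sptbn1 (0.48) and Map4 (0.51) had smaller log2 changes and were not called. Of the 6 motor members, Kif1a (1.16) and Kif5b rose, beside 4 of all 14 motor genes. Kif1b (0.47), Myh10 (−0.11) and Kif3a (−0.36) were not called. Of the 3 postsynaptic scaffolds, Shank3 rose by 1.35 on the log2 scale, Dlgap4 (0.47) and Dlg3 (−0.11) were not called, and 11 of all 20 genes of that list rose. Prrc2b rose by 0.59, while Srrm2 (−0.17), Adgrl1 (0.32) and Chd4 (−0.47) were not called.

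After KCl, 30 RNAs were higher in neurites of WT neurons, beside 6.87% of 23028 genes, and 2 were lower, beside 2.73%, and 27 of the 30 were among the 31 called without KCl, where the inserts came from the same litters and the libraries entered the same fit. The median log2 change was 0.30, against −0.03 over all genes. Leaving out WT neurite replicate 1 with KCl lowered the count to 15 (14 higher, 1 lower), beside 3.21% of all genes, and leaving out WT soma replicate 2 with KCl gave 45 (44 higher, 1 lower), beside 10.7%. The edgeR fit of all 16 libraries called no gene, and 16 members had an unadjusted p of at most 0.05, beside 5.25% of all genes.

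The largest increases with KCl were those of Fbxo31, a substrate receptor of a ubiquitin ligase, of Zc3h7b, a zinc finger protein, and of Rgs5. Fbxo31 was at 56.2 and 77.5 CPM in soma and at 232 and 220 CPM in neurites, a log2 change of 1.77 (SE 0.17, edgeR adjusted p = 0.000345). Zc3h7b was at 65.0 and 179 CPM in soma and at 408 and 338 CPM in neurites, a log2 change of 1.62 (SE 0.35, edgeR adjusted p = 0.0142), and its soma replicates differed more than its neurite replicates. Of the list members named above, Map1a, Map1b, Map2, Kif1a, Kif5b, Shank3 and Prrc2b were again called, and Dlgap4 was called with a log2 change of 0.60.

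The 2 members lower in neurites with KCl were Meg3 and Gaa. Meg3 had a log2 change of −0.97 (SE 0.12, edgeR adjusted p = 0.00117). Gaa, the lysosomal acid alpha-glucosidase, was at 391 and 574 CPM in soma and at 313 and 293 CPM in neurites, a log2 change of −0.66 (SE 0.17, edgeR adjusted p = 0.0262), and the call was lost in 6 of 11 alternatives.

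In KO neurons no member was called in either treatment, and neither was any other gene (edgeR, 0% of 22557 genes in Ctrl and 0% of 23152 with KCl). At an unadjusted p of at most 0.05 there were 5 members of 1239 genes in Ctrl (Zc3h7b, Rgs5, Aatk, Shank3 and Rapgef1). That is near the share of all genes, 5.49%. With KCl there were 0 members of 132 genes, beside 0.57% of all genes. DESeq2 called 0 members in both, and 17 and 0 genes. The biological coefficient of variation was 0.49 and 0.51 in the KO fits, against 0.15 in both WT fits.

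Without KCl, the medians of the WT and KO inserts lay close together. The median log2 difference between neurites and soma over the 100 RNAs was 0.35 and 0.32 in the WT inserts and 0.37 and 0.39 in the KO inserts. Over all 100 RNAs, the fitted medians were 0.27 in WT and 0.24 in KO. With KCl the WT inserts had medians of 0.44 and 0.18, and the KO inserts −0.07 and 0.24. The lowest of these values belongs to KO insert 1, the insert with few neuronal and many glial transcripts, where 32 of the 100 RNAs were above 0, against 68 in KO insert 2.

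**Figure D5:**
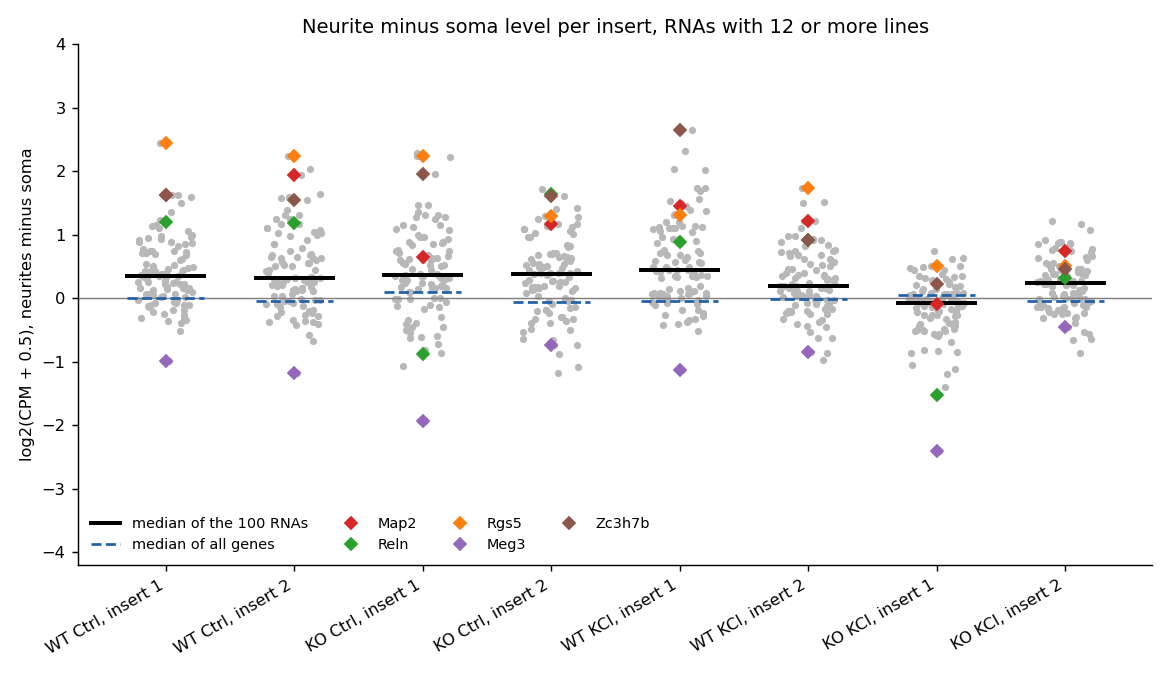
Difference between neurites and soma in log2(CPM + 0.5) for the 100 RNAs (grey points) in each of the 8 inserts, with the median of the 100 RNAs (black bar), the median of all genes (dashed bar) and 5 named RNAs (diamonds). The black bars lie between 0.18 and 0.44 in 7 inserts and at −0.07 in KCl-treated KO insert 1.

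The change in neurite enrichment between KO and WT was tested directly, at the study's thresholds of 1.5-fold with an unadjusted p of at most 0.05. The test here was edgeR with a term for each insert. The study instead adapted the program Xtail and kept the less significant of its 2 results per RNA. The counts are therefore not a repeat of the study's. Without KCl, 0 members were more enriched in KO, beside 2.91% of 22942 genes, and 2 were less enriched, beside 1.28%. The median change was −0.08 on the log2 scale, against −0.03 over all genes, and 54 of the 100 RNAs were below 0. No gene passed an adjusted p of 0.05 in edgeR, and no member was called without the replicate block that pairs soma and neurites of an insert.

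The 2 RNAs were Map2 and Kif5b. For Map2 the neurite minus soma values were 1.63 and 1.94 in the WT inserts and 0.64 and 1.16 in the KO inserts, which do not overlap, and the log2 change was −0.93 (SE 0.38, edgeR unadjusted p = 0.0396, adjusted p = 0.934). In CPM, Map2 in neurites was at 549 and 637 in KO against 1436 and 1830 in WT, and in soma at 351 and 285 against 464 and 478, so its level was lower in both compartments. For Kif5b the values were 1.49 and 2.03 in WT and 1.31 and 0.65 in KO, and the log2 change was −0.83 (SE 0.35, edgeR unadjusted p = 0.0417, adjusted p = 0.934).

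These calls rested on single inserts. Leaving out WT insert 2 left no member called by edgeR, and leaving out WT insert 1 left 1. Leaving out KO insert 1 gave 18 members (4 higher, 14 lower), beside 21.5% of all genes, and leaving out KO insert 2 gave 11 (3 higher, 8 lower), beside 8.62%. Without KCl-treated KO insert 1 in the fit, 1 member was called. In 16 of the 100 RNAs both WT inserts were above both KO inserts, beside 13.2% of all genes, and in 19 both were below, beside 19.5%.

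With KCl, 6 members were less enriched in neurites of KO neurons, beside 1.1% of 23353 genes, and 0 were more enriched, beside 0.715%. Of the 100 RNAs 84 were below 0, with a median of −0.33 against 0.03 over all genes. Of the 318 RNAs with 8 to 11 lines, 19 were less enriched (5.97%) and 0 more enriched, with a median of −0.26. Those with 2 to 7 lines had 1.75% less enriched, 0.754% more enriched and a median of 0.04. In 33 of the 100 RNAs both WT inserts were above both KO inserts, beside 15.6% of all genes, and in 6 both were below, beside 16.1%.

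The number of calls depended on inserts of both genotypes. Without KCl-treated KO insert 1, the insert that stood apart, no member was called, beside 1.21% of all genes, and the median was −0.19 against 0.004 over all genes. The log2 changes of Zc3h7b (−1.31) and Rgs5 (−1.004) stayed about as large in that fit, while that of Camta2 was −0.74. Without WT insert 1 there was 1 call, beside 0.484%, and a median of −0.20, with log2 changes of −0.54 for Zc3h7b, −0.46 for Camta2 and −1.19 for Rgs5. Without WT insert 2 there were 16 calls, beside 2.56%, and without KO insert 2 there were 20 (1 higher, 19 lower), beside 5.53%. No gene passed an adjusted p of 0.05 in edgeR (424 had an unadjusted p of at most 0.05), and no member was called without the replicate block.

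The 6 RNAs called with KCl were Zc3h7b, Camta2, Rgs5, Map2, Mcf2l and Rab6b. Zc3h7b had the largest change: its neurite minus soma values were 2.64 and 0.91 in the WT inserts and 0.23 and 0.46 in the KO inserts, a log2 change of −1.41 (SE 0.50, edgeR unadjusted p = 0.021, adjusted p = 1). The WT inserts lay further apart than the lower of them from KO. Camta2, a calmodulin-binding transcription activator, had 2.32 and 0.92 in WT and −0.0046 and 0.87 in KO, a log2 change of −1.17 (SE 0.48, edgeR unadjusted p = 0.0395). WT insert 2 and KO insert 2 nearly met.

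Rgs5 was more even, with 1.31 and 1.73 in WT and 0.51 and 0.51 in KO, a log2 change of −0.99 (SE 0.32, edgeR unadjusted p = 0.0133, adjusted p = 1). Map2 had 1.45 and 1.21 in WT and −0.10 and 0.75 in KO, a log2 change of −0.98 (SE 0.39, edgeR unadjusted p = 0.0328). In both RNAs the genotypes did not overlap, and Map2 was the only member called in both treatments. Mcf2l and Rab6b had log2 changes of −0.87 (SE 0.36, edgeR unadjusted p = 0.0419) and −0.83 (SE 0.35, unadjusted p = 0.043), and the lower KO value was that of insert 1 in both.

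Reln, the RNA with the most sites, shows how far KO inserts could differ. Its neurite minus soma values were 1.1988 and 1.19 in untreated WT inserts and 0.88 and 0.91 in KCl-treated ones. In KO they were −0.87 and 1.63 without KCl and −1.52 and 0.32 with KCl. The WT values lay close together in each treatment, whereas the KO values lay on both sides of 0, and neither change was called.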

How the data were processed

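RNA-seq and DART-seq libraries came from soma and neurites of the same kind of cultures. For RNA-seq, the authors aligned reads to mm10 with STAR 2.7.7a and deposited raw counts per gene from featureCounts 2.0.1, unstranded and with multimapping reads counted, so overlapping genes and near-identical copies share reads. For DART-seq, the deposited C2U fraction per site and the score per RNA (the sum of fractions) are the authors' averages, after filters on reads, edits, excess over KO, the RAC motif and replicates. Columns with the authors' own fold changes and p-values were not used.

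Sites were placed on GENCODE M21 transcripts (5557 of 5643 RNAs matched) and GRCm38.p6. Genes averaging 10 or more counts were tested with edgeR 4.0.16 (TMM, quasi-likelihood F-test, Benjamini-Hochberg adjustment, R 4.3.3): neurite enrichment within the 8 libraries of a genotype, KO against WT soma within the 8 untreated libraries, and the change of enrichment within all 16 with a term for each insert as the replicate block, as soma and neurites of an insert are 1 culture. The correlation of soma and neurite replicate differences was −0.14 (WT Ctrl), 0.01 (WT KCl), 0.07 (KO Ctrl) and 0.90 (KO KCl). Per-insert values are differences of log2(CPM + 0.5). Calls needed 1.5-fold and p of at most 0.05. The code was tested on simulated data. Intervals cover counting error only. DESeq2 1.42.0, other scalings and filters, and leaving out libraries were alternatives.

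The members, gene lists and tests were chosen with earlier results of these data known. RNAs were named for having the most lines, the most sites per kilobase, the highest single C2U, the 3 highest or lowest score ratios or the 3 largest called changes in each direction, or as list members or RNAs the study follows up (Map2). Other RNAs were named after their values were seen, among them Acp1, Bcr, Agtpbp1, Fasn, Ntrk2, Purb and the KO-change calls beyond the 3 largest. Some items that met these rules are not reported here.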

Additional observations from a re-analysis of the deposited data

Results flagged for a closer look

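Of the 100 RNAs, 8 tests of the KO change in neurite enrichment passed 1.5-fold with an unadjusted p of at most 0.05, which is a difference between the genotypes in the same contrast, and none passed after adjustment (edgeR, adjusted p from 0.934 to 1). Without KCl the log2 changes were −0.93 for Map2 and −0.83 for Kif5b, lower in KO in every insert against every WT insert. With KCl they were −1.41 for Zc3h7b, −1.17 for Camta2, −0.99 for Rgs5, −0.98 for Map2, −0.87 for Mcf2l and −0.83 for Rab6b, again with both KO inserts below both WT inserts. In KCl-treated KO insert 1 the summed neuronal markers were at 2215 CPM in neurites and the summed astrocyte markers at 19388 CPM. Without that insert none of the 6 was called, while the log2 changes were −1.31 for Zc3h7b, −1.004 for Rgs5 and −0.74 for Camta2.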

How the results depend on the processing

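With only 2 inserts per group, single libraries decided most counts of members called. The share of all genes called changed between these fits too, so the counts alone are no result about the members. Leaving out 1 library at a time gave 23 to 33 members in WT Ctrl, 15 to 45 in WT KCl, 0 in both KO comparisons, and 1 to 36 for KO against WT soma. Leaving out 1 insert gave 0 to 18 members for the KO change in Ctrl and 0 to 20 with KCl. The fit of all 16 libraries gave 0 in WT Ctrl and 0 in WT KCl. For the KO change in Ctrl, 2 members became 1 with DESeq2, 4 with no filter on low counts, 1 with a mean count of at least 100, 0 with only the 8 libraries compared, 0 by adjusted p and 1 without KCl-treated KO insert 1, an alternative chosen after seeing the data. Of all genes, 6.9% were called in Ctrl with DESeq2, 5.63% with no filter, 3.86% at the higher count and 1.51% with 8 libraries. For the KO change with KCl, 6 became 14 with no filter, beside 1.96% of all genes. It became 10 with only the 8 libraries compared, beside 3.73%, and 0 by adjusted p, beside 0%. For KO against WT soma, 1 became 3 with DESeq2, beside 3.36% of all genes, and 4 with no filter, beside 2.88%. With only 4 libraries it became 0, beside 0%. Beyond the fewer samples or genes in some of these fits, the cause was not tested.

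Without the replicate block, the KO change fell to 0 members in both treatments, beside 1.29% of all genes in Ctrl and 0.642% with KCl. With a replicate block added, the counts were 32 in WT Ctrl, beside 11.7% of all genes, and 32 in WT KCl, beside 8.5%. They were 0 in both KO comparisons, beside 0%, and 1 for soma, beside 0.0463%. Crossing the WT Ctrl numbers, also chosen after seeing the data, left 32 and 2 members, beside 13.1% and 4.51% of all genes.

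The share of sites with a neighbour within 100 bases (45.4%) was 27.6% within 50 bases, 66.8% within 200, 37.4% along the genome and 48.1% for RNAs with 15 or more lines, where the 3′UTR share was 25.7%. The median score difference of 0.179 became 0.0122 per site, and the median of 1.85 sites per kilobase became 2.49 by transcript length. No named gene reversed: 128 of their alternatives kept the call and 44 lost it. Depth at DART-seq sites is unknown.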
